A study of Homo sapiens with 2 samples.

Results

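The genes of MHC class I antigen presentation described here are 9 of the 18930 genes in a single table of bulk RNA sequencing, chosen by their symbols. They are the heavy chains HLA-B, HLA-C, HLA-E and HLA-F, the light chain B2M, the peptide transporter subunits TAP1 and TAP2, tapasin (TAPBP) and the transcriptional activator NLRC5. All 9 had counts, and all 9 passed the minimum of 10 reads over both libraries that left 16210 genes for comparison. The study asked which genes differ between A375 cells, a human melanoma line, made resistant to the DNA-alkylating drug dacarbazine (DTIC), labelled DR, and control cells labelled WT. There was 1 library in each group, so no difference below has a replicate check, no p-value is given, and every interval covers read counting only. The labels state 105 days of treatment (the drug is spelled DITC there) and DMEM medium with serum for each sample, so also for WT, which the study's text describes as the wild-type control. No clone, and no dose for the sequenced cells, is named in the labels.

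Each count column was assigned to the library whose description carries the column's name, and these descriptions differ by a single punctuation mark, so the direction of every difference rests on them. Both column names carry the letters BR, as does the title of the DR sample, whereas the title of the WT sample carries wt. The column names alone therefore do not tell which library is WT. The DR-labelled library held 54878355 reads and the WT-labelled library 35294670. Markers of the labelled cell type were low. The 13 melanocytic markers with counts summed to 47.0 CPM (counts scaled to a library of 1000000 reads) in the DR-labelled library and 47.7 in the WT-labelled library, most of it from MITF at 34.5 and 34.8, and SOX10 had 3 and 0 reads. The 13 plasma cell markers summed to 13091 and 11139 CPM, and in each library 12 of them exceeded the median gene. The libraries are therefore named by their labels only. The highest of them was IGLL5, at 7772 and 4806 CPM. Of the 13, 7 had a log2 fold change above 0 and 6 below 0, among them JCHAIN (-0.54) and SDC1 (-0.62), and the part of such cells in the class I values was not tested. Among the 8 T and NK cell markers, which summed to 429 and 288 CPM, CD8B alone gave 412 and 270, and the 8 myeloid and 6 fibroblast markers with counts summed to at most 24.7 CPM.

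MHC class I molecules display peptides from inside the cell to cytotoxic T cells. A heavy chain pairs with B2M in the endoplasmic reticulum, the TAP1 and TAP2 transporter brings in peptides cut by the proteasome, and tapasin bridges the transporter and the empty class I molecule so that a fitting peptide can be loaded. NLRC5 raises transcription of these genes together with the RFX, CREB/ATF and NF-Y factors, which sit on a conserved promoter module of W/S, X1, X2 and Y boxes. Loss of B2M, of the transporter or of heavy chains is a known way in which melanoma cells escape cytotoxic T cells, and cells of the B lineage normally carry much class I.

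All but NLRC5 of the 9 genes had a higher level in the DR-labelled library. On the scale of log2 (CPM + 0.5), HLA-F differed most, by 1.91, and was the only member at a 2-fold or larger difference. A 2-fold or larger difference in that direction was found in 7.42% of all genes tested, and in the other direction, where no member lay, in 4.19%. The other 7 genes with a higher level differed by 0.13 to 0.66, which is less than 2-fold. NLRC5 differed by -0.64 and was thus lower in the DR-labelled library. The median log2 fold change of the 9 genes was 0.36, against 0.01 for all genes tested, of which 50.6% were above 0. Added together, the 9 genes gave 4199 CPM in the DR-labelled library and 3188 CPM in the WT-labelled library. The counting interval excluded 0 for all 9, as it did for 70.4% of all genes tested, since depth makes these intervals narrow, and it says nothing of the spread between cultures.

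**Figure D1:**
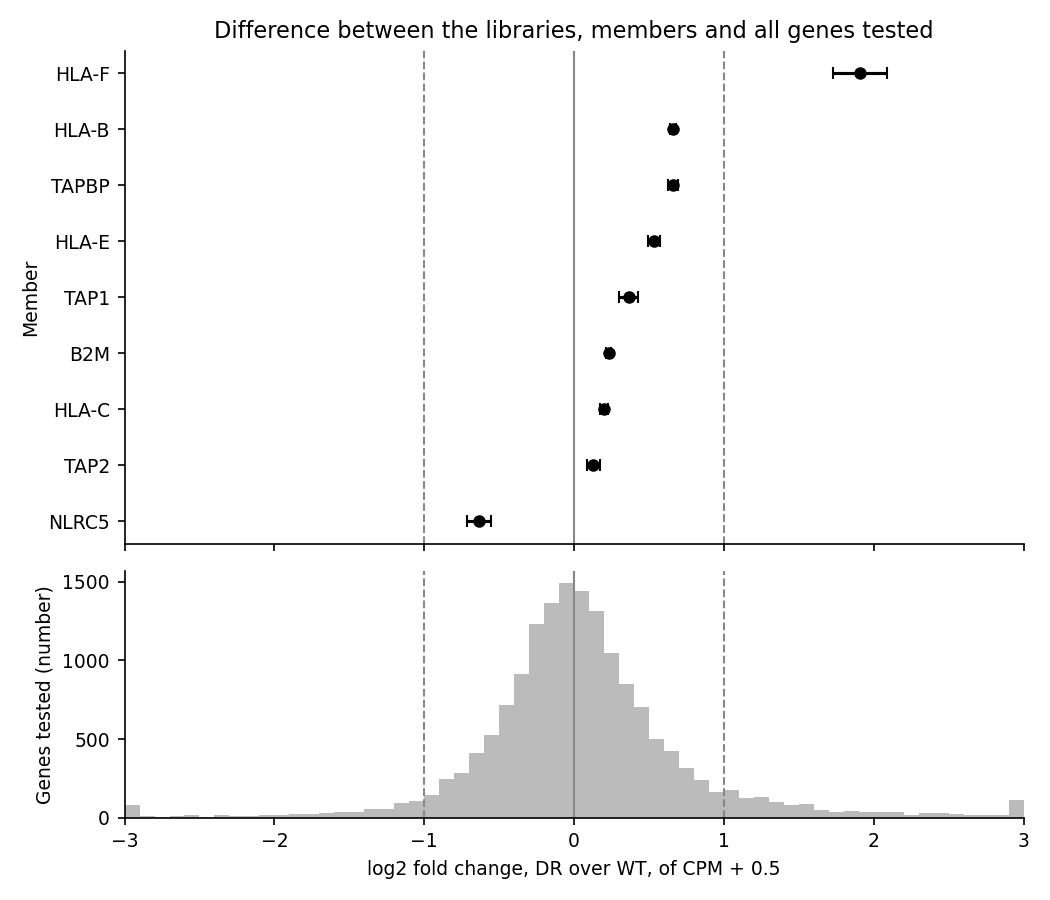
Upper panel, log2 fold change of each of the 9 genes, the DR-labelled library over the WT-labelled library, on the scale of CPM + 0.5, with bars for the 95% interval of read counting. Lower panel, the number of all 16210 genes tested by log2 fold change, with genes beyond 3 in size put in the outermost bins, and dashed lines mark a 2-fold difference. HLA-F at 1.91 lies alone beyond the dashed line, 7 genes lie between 0.13 and 0.66, and NLRC5 lies at -0.64.

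The promoters of these genes are shown because some of the members share elements there that the choice of genes did not use. None of the motifs below was found in all the members searched. RefSeq promoter windows (GRCh38.p14, not the build named for these files) were at hand for HLA-B, HLA-C, HLA-F, B2M, TAP1, TAP2 and TAPBP, 7 of the 9 genes, and HLA-E and NLRC5 had none. The 200 bases before the gene start follow for 5 of them, read in the direction of the gene. They comprise the 3 classical and non-classical heavy chains, the light chain, and tapasin, whose difference was close to that of HLA-B. Capitals mark each match, on either strand, to ATTGG (the Y box bound by NF-Y) or TGACG (the core of the X2 box or CRE). They also mark GAANNGAAA or AAANNGAAA (2 forms of the interferon-stimulated response element, ISRE). TTCNNNGAA (GAS, the STAT site) and GGGATTCCC (the kappa B site of class I enhancer A) are marked as well.
HLA-B promoter, chr6:31357180-31357379, minus strand: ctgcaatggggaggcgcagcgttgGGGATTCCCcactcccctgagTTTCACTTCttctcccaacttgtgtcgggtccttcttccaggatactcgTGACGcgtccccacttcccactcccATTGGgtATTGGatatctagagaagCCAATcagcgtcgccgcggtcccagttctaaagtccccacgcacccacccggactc
HLA-C promoter, chr6:31272093-31272292, minus strand: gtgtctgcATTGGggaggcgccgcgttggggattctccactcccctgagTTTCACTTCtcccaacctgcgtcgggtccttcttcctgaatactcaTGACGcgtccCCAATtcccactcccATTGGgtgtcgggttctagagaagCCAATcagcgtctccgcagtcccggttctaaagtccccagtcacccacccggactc
HLA-F promoter, chr6:29723234-29723433, plus strand: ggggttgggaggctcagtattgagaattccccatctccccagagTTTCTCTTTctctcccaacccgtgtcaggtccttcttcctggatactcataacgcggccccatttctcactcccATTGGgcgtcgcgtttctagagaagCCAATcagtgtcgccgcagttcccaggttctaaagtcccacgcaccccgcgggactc
B2M promoter, chr15:44711317-44711516, plus strand: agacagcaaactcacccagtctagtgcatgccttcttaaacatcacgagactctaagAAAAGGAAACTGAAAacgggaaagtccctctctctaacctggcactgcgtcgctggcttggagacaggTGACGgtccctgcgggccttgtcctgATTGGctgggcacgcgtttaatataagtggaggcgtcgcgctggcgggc
TAPBP promoter, chr6:33314079-33314278, minus strand: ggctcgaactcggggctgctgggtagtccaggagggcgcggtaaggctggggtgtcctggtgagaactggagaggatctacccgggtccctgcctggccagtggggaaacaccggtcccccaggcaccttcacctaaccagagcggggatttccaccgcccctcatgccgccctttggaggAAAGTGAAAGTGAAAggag

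The ATTGG letters were found in the 250 bases before the start of 5 of the 7 genes (HLA-B, HLA-C, HLA-F, B2M and TAP1), against 37.0% of 27305 genes with a promoter window. TGACG was found in 4 of the 7 (HLA-B, HLA-C, B2M and TAP2), against 24.9%. GAANNGAAA was found in HLA-B, HLA-C and TAP2, against 8.002%. AAANNGAAA, a form added after the windows had been seen, was found in HLA-F, B2M, TAP1, TAP2 and TAPBP, against 11.1%. In TAP2 the matches to both forms overlap. The kappa B letters were complete only in HLA-B among the 7, from 176 to 168 bases before the start, against 0.439% of genes. The nearest match in HLA-C, GGGATTCTC, lay 172 to 164 bases before its start and carried the substitution C8T, counted from 1 at the first base of the motif. That of HLA-F, AGAATTCCC, lay 178 to 170 bases before its start with G1A and G3A. TAPBP had a nearer match than HLA-F, GGGATTTCC with C7T alone, 55 to 47 bases before its start. The nearest match carried 2 substitutions in TAP1 and 3 each in B2M and TAP2. A GAS match was found in TAP1 alone, in the window of a second, downstream start. HLA-F lacked TGACG at the place where HLA-B (106 to 102 bases before the start) and HLA-C (105 to 101 bases before it) carry it. Over the printed 200 bases HLA-B was 87.7% identical to HLA-C and 80.8% to HLA-F, while B2M was 42.8% identical to HLA-B. These matches describe the reference letters, not binding, and none of them was measured here.

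**Figure D2:**
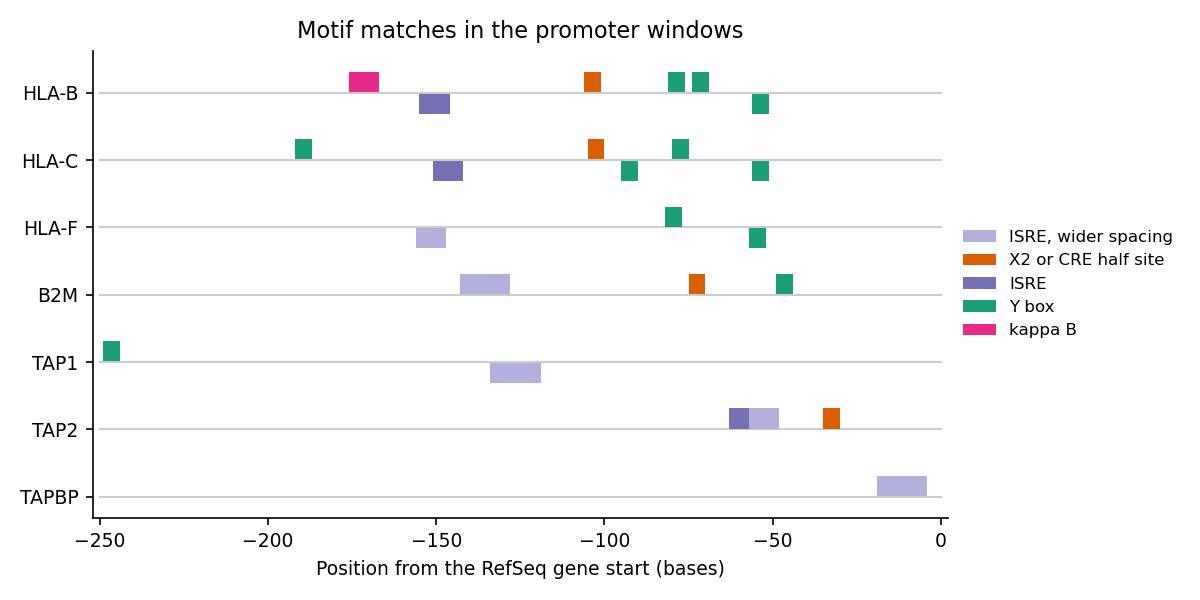
Positions of the motif matches in the 250 bases before the RefSeq start of 7 class I genes, in bases from the start, with matches on the strand of the gene above each line and on the other strand below it. HLA-B, HLA-C and HLA-F carry an ISRE match and Y box matches at like distances, TGACG is at the same place in HLA-B and HLA-C only, and the matches of TAPBP lie within 19 bases of the start. The downstream window of TAP1 is not drawn. The entry "ISRE, wider spacing" is the AAANNGAAA form, which has the same spacing as GAANNGAAA.

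Of the heavy chains, HLA-B (NCBI Gene 3106), a classical chain that presents peptides to CD8 T cells, had 70699 reads in the DR-labelled library and 27906 in the WT-labelled library. This was 1270 and 802 CPM, a log2 fold change of 0.66 (95% interval for read counting 0.64 to 0.68), or 1.58-fold. HLA-C (3107), the other classical chain of the set and a main ligand of killer-cell immunoglobulin-like receptors, had 31551 and 17140 reads. Its 567 and 493 CPM gave a smaller difference, 0.20 (0.18 to 0.23). HLA-B and HLA-C are neighbours on chromosome 6, and their differences were unlike. Per kilobase, HLA-B was 2.31 times HLA-C in the DR-labelled library and 1.68 times in the WT-labelled library, a ratio that does not depend on how libraries are scaled. HLA-E (3133), which shows leader peptides of other class I chains to the NKG2A and NKG2C receptors of NK cells, had 18506 and 7984 reads. With 332 and 229 CPM its log2 fold change was 0.53 (0.50 to 0.57), closer to HLA-B than to HLA-C.

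HLA-F (3134), a non-classical chain of narrow expression that can reach the surface as an open form without peptide, had 1611 reads in the DR-labelled library and 256 in the WT-labelled library. Its 28.9 and 7.36 CPM gave a log2 fold change of 1.91 (1.72 to 2.09), or 3.93-fold in CPM without the added 0.5. HLA-F was the least abundant of the 4 heavy chains among the 9 genes in both libraries. In the DR-labelled library it stood at percentile 75.9 of all genes tested by reads per kilobase, and in the WT-labelled library at percentile 46.8, just under the median. Of all genes tested, its log2 fold change was at percentile 97.7.

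Heavy chain genes resemble each other, and the authors' counting could have split reads between them or with genes that overlap them. In GENCODE 29 transcripts, 41.7% of the 50-base stretches of the longest HLA-F transcript occurred in a transcript of another gene on either strand, most often AL645939.1. The share was 21.0% for HLA-B, 6.71% for HLA-C and 5.76% for HLA-E, and 2.0% of the HLA-B stretches were shared with HLA-C. These are exact matches between reference transcripts, so they do not show how many reads were split. The read length of these libraries is not given in the sources used here. The estimated counts were fractional for 8 of the 9 members, with NLRC5 the exception. They were fractional for 9108 of the 18267 genes with counts in both libraries, so this is not particular to the members.

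B2M (567), the light chain with which class I heavy chains form a complex, had 70676 reads in the DR-labelled library and 37652 in the WT-labelled library. These were 1270 and 1082 CPM, and the log2 fold change was 0.23 (0.21 to 0.25). B2M was the most abundant member per kilobase in both libraries, at 1273 and 1085 CPM per kilobase of gene length (RPKM), ranked 36 and 45 of all genes tested. None of its 1656 stretches of 50 bases occurred unchanged in another gene's transcript. That search cannot exclude a copy with a few differing bases, and the estimated counts of B2M were fractional.

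Both transporter genes differed by less than 2-fold. TAP1 (6890), with 5955 and 2888 reads or 107 and 83.0 CPM, had a log2 fold change of 0.36 (0.30 to 0.43). TAP2 (6891), with 11034 and 6310 reads or 198 and 181 CPM, had the smallest difference of the 9 genes, 0.13 (0.08 to 0.17). The 2 subunits form a heterodimer, and per kilobase TAP1 was 0.790 times TAP2 in the DR-labelled library and 0.670 times in the WT-labelled library. Of the TAP2 stretches, 35.8% occurred in the transcript of AL669918.1, and 15.2% of the TAP1 stretches occurred in another gene's transcript. Both counts are uncertain for this reason, as are those of the heavy chains. TAPBP (6892), tapasin, had 21329 and 8432 reads or 383 and 242 CPM, and its log2 fold change of 0.66 (0.62 to 0.70) was equal to that of HLA-B within read counting. TAPBP was 2.14 times TAP2 per kilobase in the DR-labelled library and 1.48 times in the WT-labelled library.

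NLRC5 (84166), the NOD-like receptor family member that acts as the class I transactivator, was the only member whose level was lower in the DR-labelled library. It had 2404 reads there and 2345 in the shallower library labelled WT, or 43.2 and 67.4 CPM. The log2 fold change was -0.64 (-0.72 to -0.55), which is 1.56-fold higher in the WT-labelled library, and at percentile 9.83 of all genes tested. Its counts were whole numbers, and none of its transcript's 50-base stretches occurred elsewhere. NLRC5 was thus lower in the library in which each of the other 8 genes was higher.

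Levels between genes were compared per kilobase. In the DR-labelled library the order was B2M at 1273 RPKM, HLA-B at 826, HLA-C at 357, HLA-E at 124, TAPBP at 107, TAP2 at 49.96, TAP1 at 39.5, HLA-F at 20.7 and NLRC5 at 7.15. In the WT-labelled library it was B2M at 1085, HLA-B at 522, HLA-C at 311, HLA-E at 85.7, TAPBP at 67.8, TAP2 at 45.7, TAP1 at 30.6, NLRC5 at 11.2 and HLA-F at 5.27. The order was the same down to TAP1, and HLA-F and NLRC5 changed places. All 8 neighbouring pairs in each order differed beyond counting error, the closest being HLA-E and TAPBP at 1.16-fold (1.14 to 1.18) in the DR-labelled library. The spread between cultures is unknown. Against a median of 6.45 and 6.42 RPKM for all genes tested, the 9 genes were all above it in the DR-labelled library and all but HLA-F in the WT-labelled library.

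**Figure D3:**
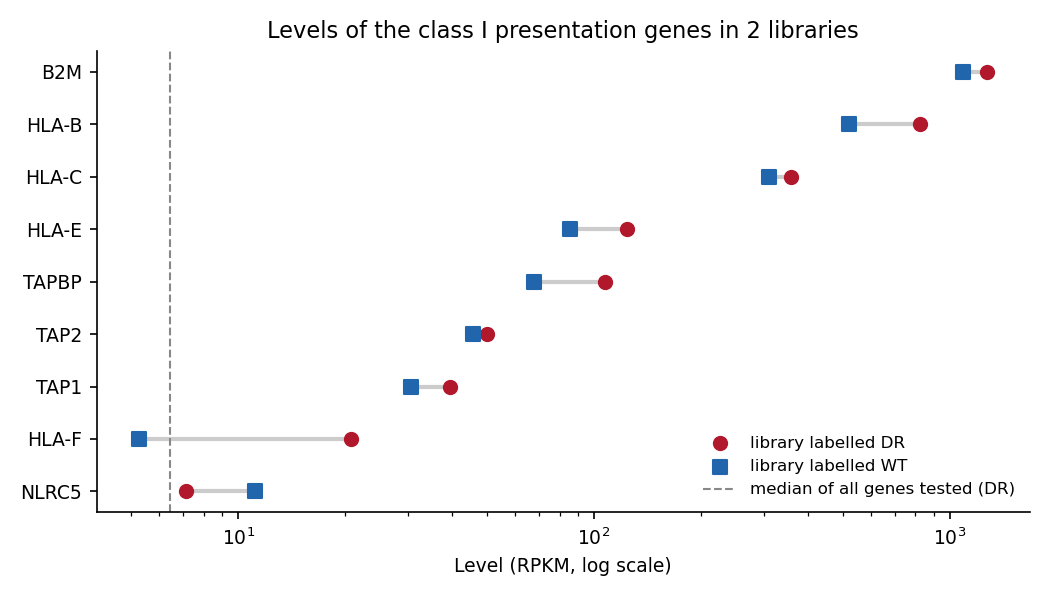
Level of each of the 9 genes in RPKM on a log scale, in the DR-labelled library (circles) and the WT-labelled library (squares), 1 library each and no error bars. The dashed line is the median over the genes tested for the DR-labelled library, 6.45 RPKM. The circle lies to the right of the square for every gene but NLRC5, and the widest gap is that of HLA-F, 20.7 against 5.27.

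Since a class I molecule holds 1 heavy chain and 1 B2M, the transcripts were also set against B2M within each library, which removes the scaling between libraries. HLA-B was 64.9% of B2M per kilobase in the DR-labelled library and 48.1% in the WT-labelled library, a ratio 1.35 times higher (1.32 to 1.38, counting only). HLA-C was 28.1% and 28.6% of B2M, and the ratio between the libraries, 0.98 (0.959 to 1.003), did not differ from 1 beyond counting error. HLA-E was 9.74% and 7.89%, TAPBP 8.42% and 6.25%, and TAP1 3.10% and 2.82% of B2M. TAP2 turned the other way on this scale, at 3.92% and 4.21%, a ratio of 0.93 (0.90 to 0.96). HLA-F was 1.63% and 0.486% of B2M, 3.35 times higher (2.94 to 3.83), and NLRC5 was 0.562% and 1.03%, 0.55 times as high (0.52 to 0.58). The 9 transcripts therefore did not differ by 1 common factor.

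**Figure D4:**
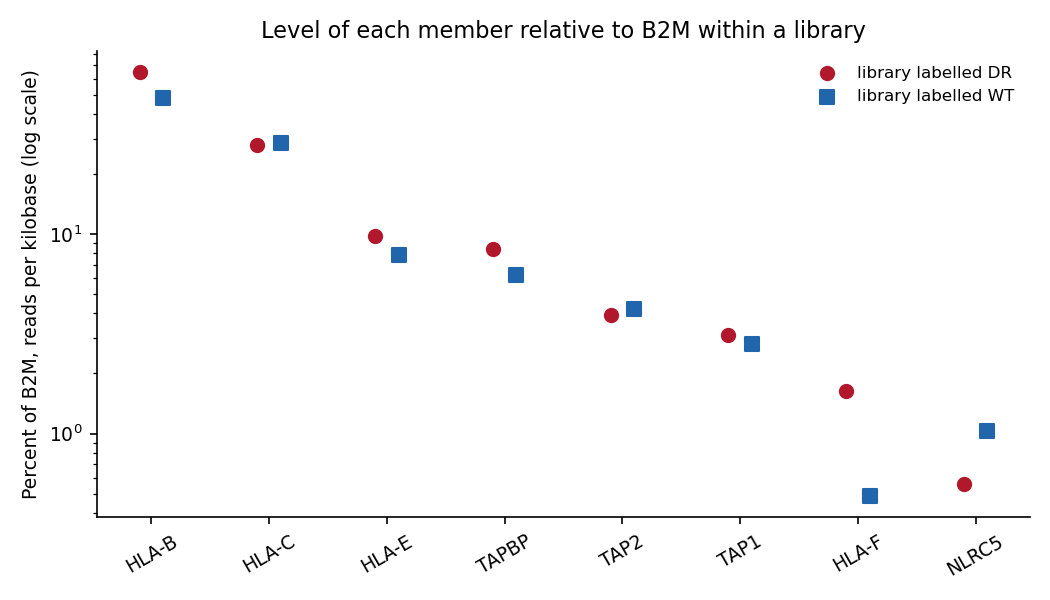
Reads per kilobase of 8 members as a percentage of B2M in the same library, on a log scale, for the DR-labelled library (circles) and the WT-labelled library (squares). HLA-C is at 28.1% and 28.6%, nearly level, HLA-B, HLA-E, TAPBP, TAP1 and HLA-F are higher in the DR-labelled library, and TAP2 and NLRC5 are lower there.

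Other genes of the pathway were taken from 6 lists chosen from general knowledge. Apart from the members, the lists held 97 genes, of which 91 were tested. Of these, 4 were 2-fold or more higher and 1 was 2-fold or more lower in the DR-labelled library, and 86 differed by less, against 7.42% and 4.19% of all genes tested. Their median log2 fold change was 0.06. In the list of heavy chains and class I-like genes, members included, 18 of 20 genes were tested, 3 were 2-fold or more higher and 1 lower, with a median of 0.22. Besides HLA-F they were AZGP1, a secreted class I-like protein that binds lipids and carries no B2M, with 3840 and 558 reads (69.0 and 16.04 CPM) and a log2 fold change of 2.07 (1.95 to 2.20), and HLA-G, the non-classical chain of the trophoblast next to HLA-F on chromosome 6, with 575 and 165 reads (10.3 and 4.74 CPM) and 1.05 (0.81 to 1.28). RAET1G, a stress ligand of the NKG2D receptor, was lower, with 53 and 110 reads (0.952 and 3.16 CPM) and -1.33 (-1.68 to -0.97). With a pseudocount of 5 CPM, HLA-G (0.65) and RAET1G (-0.46) no longer reached a 2-fold difference.

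None of the 17 genes that supply peptides differed 2-fold, and their median was 0.01. Among the inducible subunits of the immunoproteasome, PSMB9, next to TAP1 on chromosome 6, had 2196 and 860 reads (39.4 and 24.7 CPM) and a log2 fold change of 0.66 (0.55 to 0.78), the highest of the list. PSMB8, which lies between TAP2 and TAP1, had 74.1 and 56.0 CPM (0.40), and PSMB10, which lies on another chromosome, had 74.9 and 90.9 CPM (-0.28), so the 3 subunits were not alike. Their constitutive counterparts PSMB5, PSMB6 and PSMB7 had log2 fold changes of -0.09, 0.38 and 0.01. Per kilobase, PSMB8 was 1.52 and 1.08 times PSMB5, PSMB9 was 0.460 and 0.375 times PSMB6, and PSMB10 was 0.508 and 0.621 times PSMB7, in the libraries labelled DR and WT.

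None of the 14 genes of peptide transport, trimming and loading, the members TAP1, TAP2 and TAPBP included, differed 2-fold, and 11 of them were above 0, with a median of 0.21. ERAP2, an aminopeptidase that trims peptides in the endoplasmic reticulum, had the highest value, 113 and 69.8 CPM with a log2 fold change of 0.70 (0.63 to 0.76), beside 0.29 for its relative ERAP1. The chaperones of the loading complex were abundant and differed by less than 2-fold: calreticulin (CALR) had 1464 and 1153 CPM (0.34), calnexin (CANX) 1061 and 880 CPM (0.27) and PDIA3 336 and 337 CPM (-0.01). The value of PDIA3 was above 0 with library totals (0.04) and upper-quartile factors (0.05). TAPBPL, a peptide editor related to tapasin, had 42.4 and 38.5 CPM (0.14), against the 0.66 of TAPBP.

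Of the 23 regulators tested, 1 differed 2-fold. This was CIITA, the class II transactivator and closest relative of NLRC5 in function, with 3472 and 942 reads (62.4 and 27.1 CPM) and a log2 fold change of 1.19 (1.09 to 1.29). CIITA and NLRC5 thus lay in opposite directions, and per kilobase CIITA was 2.17 times NLRC5 in the DR-labelled library and 0.603 times in the WT-labelled library. The DNA-binding partners that both use differed by less than 2-fold, with log2 fold changes of 0.12 for RFX5, -0.14 for RFXAP and 0.09 for RFXANK, of -0.17, -0.30 and 0.05 for the NF-Y subunits NFYA, NFYB and NFYC, and of -0.41 and -0.21 for CREB1 and ATF1. IRF1, an activator at the ISRE, had 88.1 and 66.8 CPM (0.40), and IRF2, which binds the same element, 90.8 and 49.7 CPM (0.86). The kappa B factors NFKB2 (0.73) and RELB (0.66) of the non-canonical branch had higher values than NFKB1 (0.05) and RELA (-0.13) of the canonical branch, all under 2-fold.

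None of the 14 interferon receptor and signalling genes tested differed 2-fold. STAT2, a part of the type I interferon signal, had 141 and 87.8 CPM (0.68). SOCS1, an inhibitor of this signal, came closest to a 2-fold difference with 171 and 46 reads (0.97), and it reached it with library totals. The interferons had almost no reads, with 23 and 13 for IFNG and 1 and 0 for IFNB1. Among 13 genes tested that act in turnover of surface class I or of its unassembled chains, MARCHF9, a ubiquitin ligase of class I, had 2572 and 782 reads (46.2 and 22.5 CPM) and 1.02 (0.91 to 1.14), and 0.90 with a pseudocount of 5 CPM. UBE2J1, a ubiquitin-conjugating enzyme of the endoplasmic reticulum, had 309 and 544 CPM, the lowest value of that list at -0.82.

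**Figure D5:**
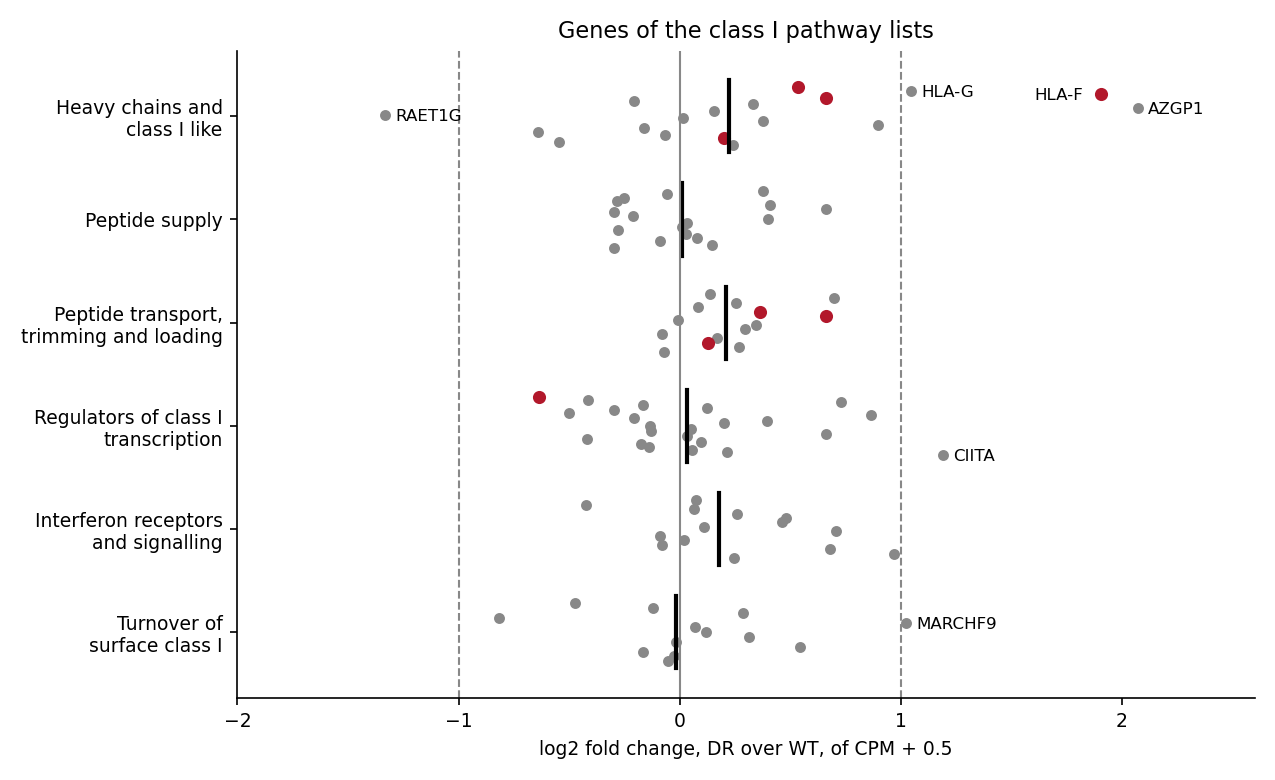
log2 fold change, the DR-labelled library over the WT-labelled library on the scale of CPM + 0.5, of the 99 tested genes of 6 class I pathway lists, 1 point per gene, with members in red, other genes in grey and a black bar at each list's median. Vertical scatter only separates the points, and dashed lines mark a 2-fold difference. AZGP1, HLA-F, HLA-G, CIITA and MARCHF9 lie beyond it to the right and RAET1G to the left, and the medians run from -0.02 to 0.22.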

How the data were processed

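Bulk RNA sequencing of 1 library labelled DR and 1 labelled WT was analysed. The authors deposited estimated counts per gene, not scaled for library size, with gene lengths. The submitters' processing notes name Bowtie 0.12.2 and hg19. The counting tool and annotation are not given in the sources used here. The deposited log2 ratio, p-value and q-value are the authors' own comparison and were not used. For 663 genes no count is listed.

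Counts were rounded to whole numbers, genes with under 10 reads over both libraries were left out, and TMM factors from edgeR scaled the library sizes (edgeR 4.0.16, R 4.3.3; factors 1.01 and 0.986). Log2 fold changes were taken after adding 0.5 CPM. RPKM was computed from the deposited lengths. With 1 library per group the quasi-likelihood test of edgeR has no residual spread to use, so a difference of 2-fold or more was counted and no test was run. The 95% intervals are Clopper-Pearson intervals on a gene's part of both libraries' reads, or for ratios of genes normal intervals of the log ratio. They cover counting error only, since each group holds 1 library. Reads carry no molecular identifiers, so the counts are of reads and not of molecules. A count of 3 reads is worth 0.0539 and 0.0862 CPM. The fold change and its interval were tested on data simulated with counting error only and known library sizes. Such data cannot show how they hold with spread between cultures.

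The members and lists were chosen with earlier results of these data known. The text names all members, every list gene at a 2-fold difference and their partners fixed with the lists; others (IRF2, NFKB2, SOCS1, UBE2J1 and the like) were named after their values were seen. Of the table's genes, 18583 matched RefSeq by NCBI Gene ID. Promoters are from RefSeq (GRCh38.p14) and transcripts from GENCODE 29. For TYR and S100B no row with a count listed for both libraries was found, so the melanocytic sum leaves them out. Some genes of the lists, and a sum over heavy chains, are not reported here. Alternatives were library totals, DESeq2 1.42.0 size factors, upper-quartile factors, pseudocounts of 0.1 and 5 CPM, unrounded counts, no filter and a minimum of 50 reads. Python 3.11.15 with pandas 2.3.3, SciPy 1.17.1, NumPy 2.4.6, Biopython 1.88 and matplotlib 3.10.9 was used.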

Additional observations from a re-analysis of the deposited data

How the results depend on the processing

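No paired analysis was possible because each group holds a single library, and for the same reason no replicate was left out. The 9 genes kept their direction under all 6 alternatives that can move a gene's value, with 8 above 0 in each, HLA-F from 1.46 to 1.96 and NLRC5 from -0.64 to -0.58 on the log2 scale. HLA-F was the only member at a 2-fold difference under all 8 alternatives. Library totals and upper-quartile factors moved the median of all genes by 0.03 and 0.05. A pseudocount of 5 CPM, which shrinks differences of low genes, lowered the genes tested at a 2-fold difference from 1203 to 418 higher and from 679 to 337 lower in the DR-labelled library, and left 0 genes higher in the list of surface class I turnover and 0 lower in that of class I-like genes. With library totals, upper-quartile factors or a pseudocount of 0.1 CPM, 1 interferon signalling gene was 2-fold higher. Without division by length, 3 members in the DR-labelled library and 7 in the WT-labelled library stayed at their place in the order of levels. Depth limits the low genes, such as RAET1G, most.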

Other observations

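After the values had been seen, the genes that RefSeq places along chromosome 6 from HLA-F to TAPBP, the span that holds 7 of the 9 members and the MHC class II genes, were described as a whole. Of 126 genes tested there, 20 (15.9%) were 2-fold or more higher in the DR-labelled library and 0 were 2-fold or more lower, beside 7.42% and 4.19% of all genes tested, and 96 (76.2%) were above 0, beside 50.6%. Their median log2 fold change was 0.20. Without the members and the HLA-D genes, 106 genes were left, of which 10 (9.43%) were 2-fold or more higher, 0 were lower and 76 (71.7%) were above 0, with a median of 0.12. The counts of these 106 genes still hold genes with near-identical copies, such as HSPA1A (34.4 and 13.4 CPM) and HSPA1B (273 and 131 CPM), the inducible HSP70 genes, and C4B (3.61 and 1.09 CPM), a complement gene whose more abundant copy C4A had 19.5 and 23.0 CPM.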
